A study of Mus musculus with 12 samples.

Results

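The genes described here encode the degradative machinery of the lysosome apart from the cathepsins: the acid hydrolases, their luminal cofactors, the lysosomal membrane proteins and the vacuolar proton pump. They were listed by name, 49 in all. The rule uses no measured value, although the list was drawn up with earlier results of these data known. A probe set that the platform annotation gives to exactly 1 gene was present for 44 of the 49, and where a gene had several the set with the highest mean over the 12 arrays was used. All 44 passed the filter on low values and were among the 12488 genes tested. Atp6v0c, Atp6v1c1, Atp6v1g1, Idua and Neu1 had no such probe set and were not analysed here. The 44 comprised 13 pump genes, 8 membrane proteins, 3 luminal cofactors and 20 hydrolases.

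The study set bone marrow-derived macrophages that had entered tumour spheres against macrophages of the same cultures that had stayed outside. The spheres were grown on agar from TT9423, a mouse neuroblastoma cell line, and the macrophages came from C57BL/6 mice, with no drug or other treatment in any group. The 4 groups were in-sphere cells at 24 h, outside cells at 24 h, in-sphere cells at 48 h and outside cells at 48 h, with 3 arrays each. In-sphere cells are labelled CD11b+, because the spheres were digested with enzymes and the macrophages were taken from them on CD11b magnetic columns. The protocol text is the same on all samples, so it does not say whether outside cells were digested or column-selected, and this handling cannot be told apart from the in-sphere position. The times are those of the sample titles, although the shared protocol text describes 24 h of co-culture on every sample. Each replicate was an independent experiment pooled over several wells, and no array of TT9423 alone was analysed here. Values are log2 expression per probe set, so a difference of 1 is a doubling, and the levels of different genes are not compared.

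Lysosomes break down material delivered by endocytosis, phagocytosis and autophagy. The vacuolar ATPase keeps the lumen acid: its V1 sector on the cytosolic side hydrolyses ATP, and its membrane-embedded V0 sector moves protons inward. Hydrolases with an acidic optimum then degrade glycans, sulfated sugars, lipids and protein, small luminal proteins present lipids to them, and membrane proteins export the products and shield the membrane. Macrophages are rich in lysosomes. Many genes of this set are known targets of the transcription factors TFEB, TFE3 and MITF, which bind promoter sites built on the E-box core CACGTG.

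The promoters are shown first because this core is known from promoters of lysosomal genes. RefSeq promoters (build GRCm38.p6, from 250 bases before to 50 bases after a gene's start) were matched by symbol for 39 of the 44 tested members. The core, which reads the same on both strands, was found in 15 of the 39 (38.5%). Among all tested genes with a promoter it was found in 1145 of 10067 (11.4%), and among all 27025 genes with a promoter in 8.09%. With T before and A after, as TCACGTGA, it was in 7 of the 39 members (17.9%) against 2.08% of tested genes. With GT before it, as GTCACGTG or on the other strand CACGTGAC, it was in 12 (30.8%) against 4.48%. Both longer forms contain the core and can overlap each other. A match is a description of these letters and does not show that a factor binds there. The 100-base windows below, from members whose values recur in the text, show the core in capitals and run 5′ to 3′ on the gene's strand. All come from members called lower in spheres at 48 h. Others with the core are not shown, among them Arsa and Glb1, which were called at neither time. Cores are counted within the window, and Clcn7 had another just after its start. For Cln3 the window is from the promoter that holds the core, and its other promoter had none.

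Lamp1 (chr8:13159061-13159160, plus strand, 4 cores): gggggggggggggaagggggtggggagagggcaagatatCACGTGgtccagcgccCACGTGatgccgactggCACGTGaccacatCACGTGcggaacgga
Mcoln1 (chr8:3500401-3500500, plus strand, 2 cores): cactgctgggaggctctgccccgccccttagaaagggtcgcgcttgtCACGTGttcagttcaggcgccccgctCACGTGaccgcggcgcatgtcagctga
Gla (chrX:134601156-134601255, minus strand, 2 cores): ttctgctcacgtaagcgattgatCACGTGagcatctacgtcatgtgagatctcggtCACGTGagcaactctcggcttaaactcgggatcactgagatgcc
Cln3 (chr7:126583333-126583432, minus strand, 2 cores): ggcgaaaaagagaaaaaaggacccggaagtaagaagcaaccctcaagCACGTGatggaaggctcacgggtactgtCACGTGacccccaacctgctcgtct
Atp6v0b (chr4:117887330-117887429, minus strand, 2 cores): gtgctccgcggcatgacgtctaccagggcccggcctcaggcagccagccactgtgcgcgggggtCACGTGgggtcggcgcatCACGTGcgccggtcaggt
Clcn7 (chr17:25133291-25133390, plus strand, 1 core): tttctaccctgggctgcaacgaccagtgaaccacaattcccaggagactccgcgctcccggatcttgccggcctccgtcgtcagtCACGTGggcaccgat
Sgsh (chr11:119355511-119355610, minus strand, 1 core): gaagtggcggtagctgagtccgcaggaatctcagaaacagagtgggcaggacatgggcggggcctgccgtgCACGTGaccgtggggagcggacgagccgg

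The arrays were alike in overall level, with 1 exception. The mean log2 value over all probe sets was 4.19 to 4.22 on 11 arrays and 4.06 on in-sphere 48 h replicate 3, where the median tested gene lay 0.22 below its own mean over the arrays. Results at 48 h are therefore also given without that array. The difference between the 3′ and 5′ control probe sets of actin, a measure of RNA integrity, was 0.35 to 0.60 in spheres and 0.22 to 0.32 outside at 24 h, and 0.39 to 0.42 against 0.37 to 0.40 at 48 h. For GAPDH that difference was -0.12 to 0.43 in spheres and -0.043 to 0.17 outside at 24 h, and 0.11 to 0.15 against 0.053 to 0.098 at 48 h. The part of RNA integrity in the results was not tested. The weight that limma gave each array from its fit was lowest for in-sphere 48 h replicate 3 (0.235) and in-sphere 24 h replicate 1 (0.347) and 0.586 to 3.497 for the others, so 24 h results are also given without the latter. The 11 macrophage markers tested were above the detection level on all arrays, with a mean level of 10.00 to 10.49 in spheres and 10.27 to 10.47 outside at 24 h, and 10.21 to 10.32 against 10.32 to 10.42 at 48 h. Itgam, which encodes CD11b, differed by 0.15 ± 0.25 (SE) at 24 h and 0.56 ± 0.25 at 48 h and was not called at either time (limma, adjusted p = 0.729 and 0.101).

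At 24 h the in-sphere macrophages had lower levels of much of this machinery. Of the 44 members, 23 were lower in spheres, 1 (Gm2a) was higher and 20 were not called at an adjusted p under 0.05. Over all 12488 tested genes 13.6% were called lower and 15.8% higher. The median member difference was -0.39 on the log2 scale, against -0.0068 for all tested genes. The members were listed with earlier results of these data known, so these counts are given as a description. In 24 members every in-sphere array lay below every outside array, and in 1 above, where 21.5% and 22.0% of tested genes did so. Without in-sphere 24 h replicate 1, 20 members were called lower and 1 higher, with a median of -0.35.

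At 48 h more members were called. Lower levels in spheres were called for 32 of the 44 members, none was called higher and 12 were not called. The share of all tested genes called lower was 22.3%, and 15.2% were called higher. The median member difference was -0.68, against -0.10 for all tested genes. The arrays did not overlap in 38 members that were lower (31.0% of tested genes) and in 1 that was higher (20.7%). Without in-sphere 48 h replicate 3, 29 members were called lower and 0 higher, with a median of -0.66, where 17.0% and 16.4% of all genes were called. With every array centred on its median, the all-gene median at 48 h moved from -0.10 to 0.017 and 26 members were called lower, where 17.3% of all genes were; over all genes that centring turned 1904 higher and 2781 lower calls into 2286 and 2163.

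Counts and medians are given for each group of the set. The shares of all tested genes called lower were 13.6% at 24 h and 22.3% at 48 h (17.3% with arrays centred). Counts here and in the paragraphs by role below stand beside those shares. All 13 pump genes were called lower at 48 h and 9 at 24 h, with medians of -0.87 and -0.47; with arrays centred 10 of the 13 were called at 48 h, Atp6v0e, Atp6v1f and Atp6ap2 being lost. Membrane proteins had the lowest medians, -1.11 at 48 h with 6 of 8 called and -0.83 at 24 h with 7 of 8 called. Hydrolases had medians of -0.54 and -0.22, with 12 of 20 called lower at 48 h (9 with arrays centred) and 6 at 24 h. Leaving out in-sphere replicate 1 moved the hydrolase median at 24 h to -0.14, and leaving out outside replicate 1 moved it to -0.12. Differences between these groups of genes were not tested.

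**Figure D1:**
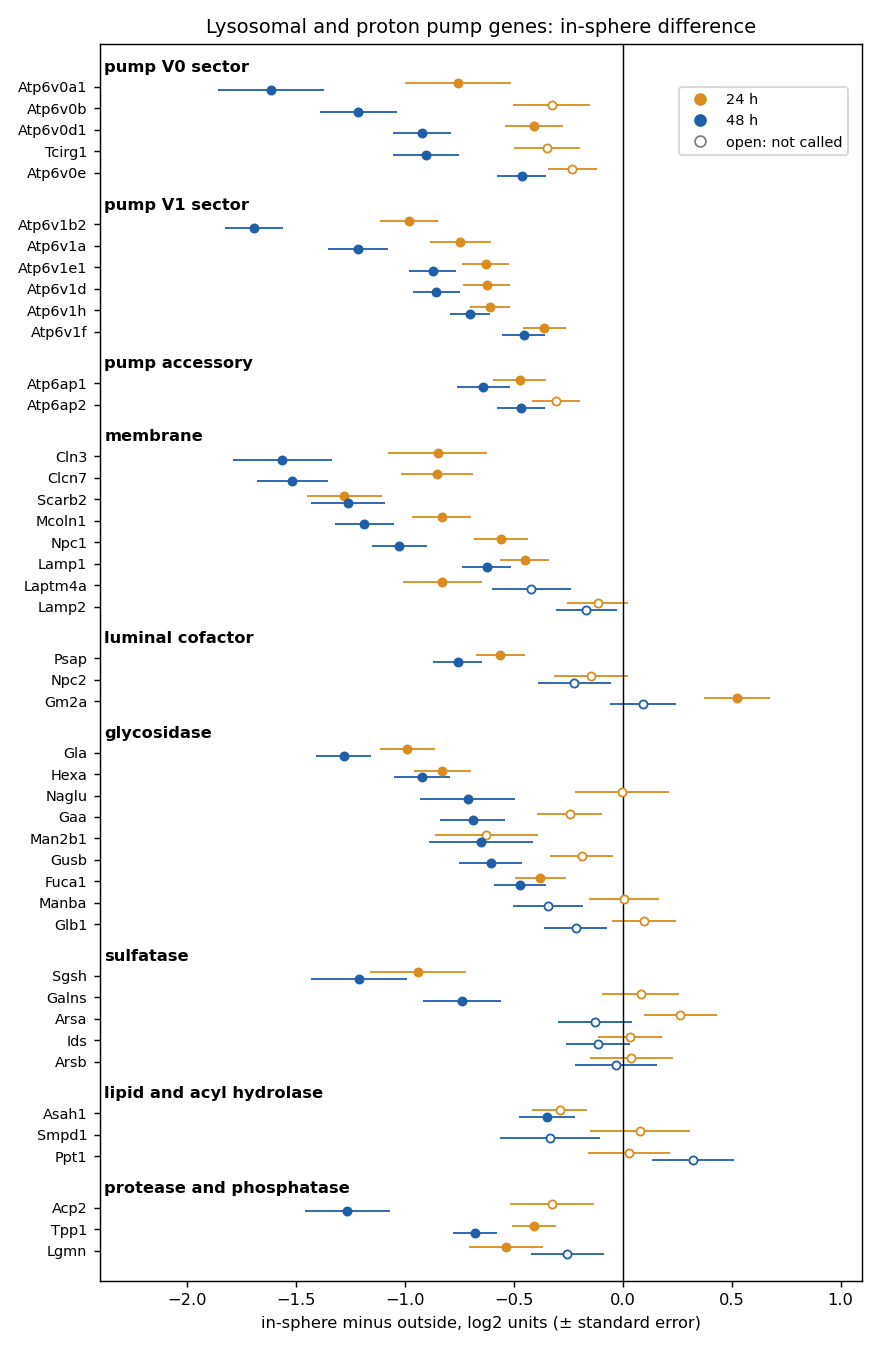
In-sphere minus outside difference of each of the 44 tested members (log2 units, horizontal axis; bars are ± 1 standard error) at 24 h in orange and 48 h in blue, ordered by role. Filled points passed an adjusted p of 0.05; all 13 pump genes are filled at 48 h, and Gm2a at 24 h is the filled point above 0.

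**Figure D2:**
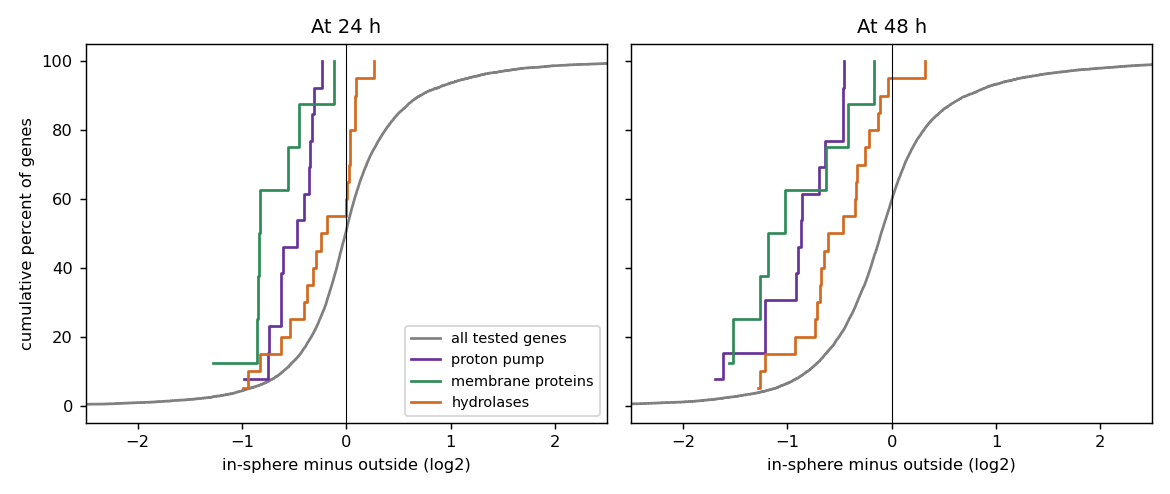
Cumulative percent of genes (vertical axis) at or below each in-sphere minus outside difference (log2, horizontal axis) for the pump, membrane proteins, hydrolases and all tested genes at 24 h and 48 h. At their medians the membrane, pump and hydrolase curves lie to the left of the all-gene curve at both times (-1.11, -0.87, -0.54 and -0.10 at 48 h), while the all-gene curve extends further in both directions.

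All 6 V1 genes tested, which build the ATP-hydrolysing sector, were lower in spheres at both times, with medians of -0.63 at 24 h and -0.87 at 48 h. The largest differences were in the subunits that form the catalytic ring. Atp6v1b2, the B subunit of that ring, read 9.34, 9.36 and 9.04 outside at 24 h and 8.27, 8.13 and 8.38 in spheres, and 9.43, 9.62 and 9.37 against 7.95, 7.77 and 7.64 at 48 h. Every in-sphere array lay below every outside array at both times. It was 1.98-fold lower at 24 h (-0.98 ± 0.13, adjusted p = 0.000205) and 3.23-fold lower at 48 h (-1.69 ± 0.13, adjusted p = 3.12e-06). Atp6v1a, the catalytic A subunit, read 10.69, 10.30 and 10.54 outside and 9.81, 9.65 and 9.83 in spheres at 24 h, and 11.06, 10.78 and 10.91 against 9.86, 9.52 and 9.72 at 48 h. Here too the groups did not overlap, and the differences were -0.75 ± 0.14 (adjusted p = 0.00163) and -1.22 ± 0.14 (adjusted p = 3.62e-05). Atp6v1e1, a peripheral stalk subunit, read 10.12, 10.08 and 10.10 outside and 9.53, 9.33 and 9.54 in spheres at 24 h, and 10.19, 10.28 and 10.24 against 9.48, 9.36 and 9.26 at 48 h. Its differences were -0.63 ± 0.11 and -0.87 ± 0.11, and its second probe set was not called at 24 h (-0.73, adjusted p = 0.0737). The central stalk subunit Atp6v1d differed by -0.63 and -0.86, the regulatory subunit Atp6v1h by -0.61 and -0.70, and Atp6v1f by -0.36 and -0.46. The call of Atp6v1f at 24 h was lost without outside replicate 1 (adjusted p = 0.0547) or replicate 2 (0.0521), and that at 48 h with arrays centred (-0.34, 0.0646).

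In the proton-moving V0 sector 2 of 5 genes were called lower at 24 h and 5 of 5 at 48 h (4 with arrays centred), with medians of -0.35 and -0.92. Atp6v0a1, an isoform of the large V0 subunit, read 5.86, 5.85 and 5.83 outside and 4.88, 4.93 and 5.46 in spheres at 24 h. At 48 h it read 6.37, 6.08 and 6.29 outside and 5.06, 4.87 and 3.97 in spheres, the lowest value being on the array that stands apart. The differences were -0.76 ± 0.24 (adjusted p = 0.0343) and -1.61 ± 0.24 (adjusted p = 0.000279). The 24 h call was lost when any array other than in-sphere replicate 3 was left out (adjusted p up to 0.119), and a second probe set gave -0.72 (adjusted p = 0.0835) at 24 h and -0.23 (0.562) at 48 h. Atp6v0b, a proteolipid-ring subunit whose promoter is shown above, read 8.24, 7.96 and 7.73 outside and 7.45, 7.52 and 7.98 in spheres at 24 h, which overlap. At 48 h it read 8.25, 8.65 and 8.34 outside and 7.25, 7.30 and 7.05 in spheres, with no overlap. Its difference was -0.33 ± 0.18 at 24 h (adjusted p = 0.20, not called) and -1.21 ± 0.18 at 48 h (adjusted p = 0.000225).

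Atp6v0d1, which joins the V0 and V1 sectors, read 10.01, 10.00 and 9.74 outside and 9.39, 9.40 and 9.74 in spheres at 24 h, and 10.28, 10.29 and 10.16 against 9.46, 9.30 and 9.20 at 48 h. In-sphere replicate 3 equalled the lowest outside array to 2 decimals at 24 h, and the groups were well apart at 48 h. The differences were -0.41 ± 0.13 (adjusted p = 0.0345) and -0.92 ± 0.13 (adjusted p = 0.000186). The 24 h call was lost without in-sphere replicate 1 or 2 or outside replicate 1 or 2 (adjusted p 0.106 to 0.112). Tcirg1, the V0 isoform known from osteoclasts and macrophage lysosomes, differed by -0.35 ± 0.15 at 24 h (adjusted p = 0.108) and was lower at 48 h (-0.90 ± 0.15, 0.000602). Atp6v0e differed by -0.23 (adjusted p = 0.145) and was lower at 48 h (-0.46, 0.00603), a call lost with arrays centred (-0.35, 0.0904).

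Of the 2 accessory proteins of the pump, 1 was called lower at 24 h and 2 at 48 h. Atp6ap1 read 10.12, 9.84 and 10.23 outside and 9.53, 9.59 and 9.66 in spheres at 24 h, and 10.29, 10.09 and 10.21 against 9.49, 9.54 and 9.63 at 48 h. The groups did not overlap, and the differences were -0.47 ± 0.12 (adjusted p = 0.0107) and -0.64 ± 0.12 (0.00133). Atp6ap2, also known as the prorenin receptor, read 11.17, 11.09 and 11.08 outside and 10.62, 10.85 and 10.96 in spheres at 24 h, and 11.28, 11.38 and 11.27 against 10.83, 10.86 and 10.84 at 48 h. It was not called at 24 h (-0.31 ± 0.11, adjusted p = 0.0550) although the arrays did not overlap, and was lower at 48 h (-0.47 ± 0.11, 0.00538). At 24 h 7 of 16 alternatives called it, among them its second probe set (-0.40, 0.0176) and the mean of its sets (-0.38, 0.00907), and with arrays centred the 48 h call was lost (-0.35, 0.0775).

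Among the 8 membrane proteins, 7 were lower in spheres at 24 h and 6 at 48 h. Scarb2, the receptor that carries glucocerebrosidase to the lysosome, had the largest member difference at 24 h. It read 9.81, 9.37 and 9.79 outside and 8.06, 8.43 and 8.65 in spheres, and 9.92, 9.68 and 9.93 against 8.41, 8.68 and 8.65 at 48 h. It was 2.43-fold lower at 24 h (-1.28 ± 0.17, adjusted p = 0.000194) and 2.40-fold lower at 48 h (-1.26 ± 0.17, 0.000135), and it was the 1 member called lower by at least 1 on the log2 scale at 24 h (4.24% of tested genes). At 48 h 12 members were (6.45% of tested genes).

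Clcn7, the chloride-proton exchanger of the lysosomal membrane, read 8.05, 7.67 and 7.83 outside and 6.75, 7.00 and 7.23 in spheres at 24 h, and 8.76, 8.33 and 8.46 against 7.13, 7.05 and 6.81 at 48 h. No array overlapped, and the differences were -0.85 ± 0.16 (adjusted p = 0.00206) and -1.52 ± 0.16 (2.56e-05). At 24 h its second probe set gave -0.39 (adjusted p = 0.173) and the mean of its sets -0.47 (0.0580), and at 48 h the second set gave -0.90 (0.00339). Cln3, the membrane protein mutated in juvenile Batten disease, read 7.88, 7.88 and 7.64 outside and 6.29, 7.13 and 7.43 in spheres at 24 h, where the in-sphere arrays were widely spread. At 48 h it read 8.23, 8.35 and 8.38 outside and 6.77, 6.88 and 6.62 in spheres. The differences were -0.85 ± 0.23 (adjusted p = 0.0136) and -1.56 ± 0.23 (0.000217), and the 24 h call was lost with the second probe set (-0.40, 0.151), which gave -0.75 (0.00869) at 48 h. Without in-sphere replicate 1 the 24 h difference was -0.52.

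Mcoln1, the calcium channel mucolipin, read 7.23, 6.77 and 6.91 outside and 5.97, 6.28 and 6.16 in spheres at 24 h, and 7.45, 7.43 and 7.44 against 6.37, 6.23 and 6.16 at 48 h. Outside arrays at 48 h were nearly identical, and the differences were -0.83 ± 0.14 (adjusted p = 0.000680) and -1.19 ± 0.14 (3.62e-05). Npc1, which exports cholesterol from the lysosome, was lower at both times (-0.56 ± 0.12 and -1.03 ± 0.12). Lamp1, an abundant glycoprotein lining the membrane, was also lower at both (-0.45 ± 0.11 and -0.63 ± 0.11). Laptm4a was lower at 24 h (-0.83 ± 0.18, adjusted p = 0.00458; -0.47 with weighted arrays) and not called at 48 h (-0.42 ± 0.18, 0.0896). Lamp2, the partner of Lamp1, was not called at either time. It read 10.78, 10.48 and 10.83 outside and 10.78, 10.42 and 10.54 in spheres at 24 h, and 11.21, 10.88 and 10.94 against 10.80, 10.87 and 10.87 at 48 h. Its differences were -0.12 ± 0.14 and -0.17 ± 0.14, and a second probe set gave 0.024 at 48 h. The 95% intervals of those differences ran from -0.42 to 0.19 and from -0.47 to 0.14.

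**Figure D3:**
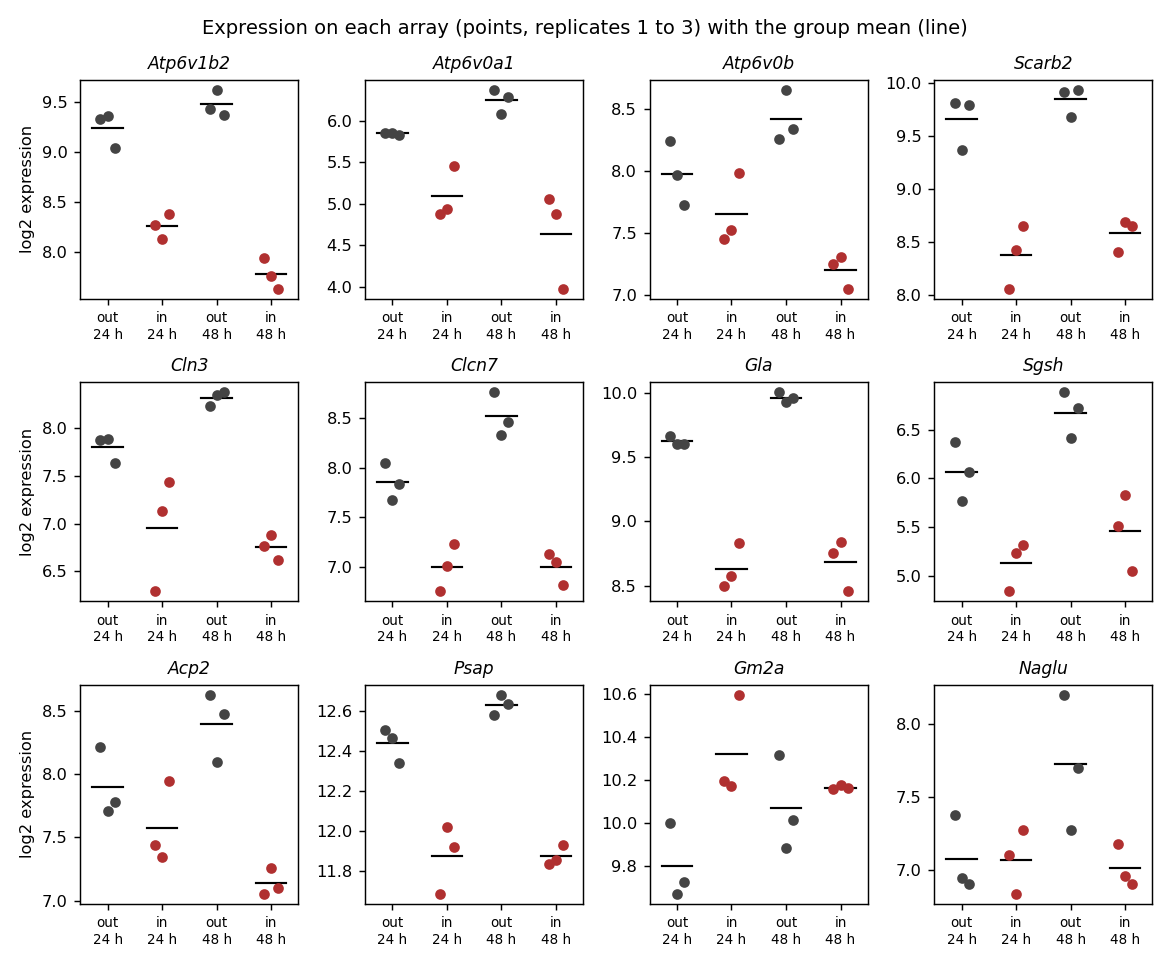
Log2 expression (vertical axis) of 12 members on each array, outside cells in grey and in-sphere cells in red, at 24 h and 48 h; points are replicates 1 to 3 and lines are group means. Atp6v1b2, Scarb2, Clcn7 and Gla do not overlap at either time, Acp2 and Naglu separate at 48 h, and Gm2a is higher in spheres at 24 h.

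The 3 luminal cofactors, which present lipids to hydrolases or carry them to the membrane, gave 1 lower, 1 higher and 1 uncalled member at 24 h. Psap, the precursor of the saposins, read 12.51, 12.47 and 12.34 outside and 11.69, 12.02 and 11.92 in spheres at 24 h, and 12.58, 12.68 and 12.63 against 11.83, 11.86 and 11.93 at 48 h. The groups were apart at both times, with differences of -0.56 ± 0.11 (adjusted p = 0.00268; -0.97 with the second probe set) and -0.76 ± 0.11 (0.000254). Gm2a, the activator that presents GM2 ganglioside to hexosaminidase, went the other way at 24 h. It read 10.00, 9.67 and 9.72 outside and 10.19, 10.17 and 10.60 in spheres, a difference of 0.52 ± 0.15 (adjusted p = 0.0214). This call was lost without in-sphere replicate 3 (adjusted p = 0.0792), outside replicate 2 (0.0782) or outside replicate 3 (0.0693), and with arrays centred (0.0614). A second probe set of Gm2a gave -0.21 (adjusted p = 0.462), so the direction rests on 1 probe set. At 48 h Gm2a read 10.32, 9.88 and 10.01 outside and 10.16, 10.18 and 10.16 in spheres, and was not called (0.09 ± 0.15, adjusted p = 0.671). Npc2, which hands cholesterol to Npc1, read 12.14, 11.64 and 12.30 outside and 11.67, 11.89 and 12.09 in spheres at 24 h, and 12.37, 12.14 and 12.28 against 11.94, 12.08 and 12.11 at 48 h. It was not called (-0.15 ± 0.17 and -0.22 ± 0.17); the mean of its 3 probe sets was called at 48 h (-0.50, adjusted p = 0.0343).

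Glycosidases, which remove sugars from glycolipids, glycoproteins and glycogen, were called lower in 3 of 9 cases at 24 h and 7 of 9 at 48 h (5 with arrays centred). Gla, the alpha-galactosidase deficient in Fabry disease, read 9.66, 9.60 and 9.61 outside and 8.50, 8.57 and 8.83 in spheres at 24 h, and 10.00, 9.93 and 9.96 against 8.75, 8.84 and 8.46 at 48 h. Its outside arrays were tight and far above the in-sphere arrays, with differences of -0.99 ± 0.13 (adjusted p = 0.000141) and -1.28 ± 0.13 (1.45e-05); the 24 h call was lost with the second probe set (-0.72, 0.0623). Hexa, the hexosaminidase alpha subunit that acts with Gm2a, read 11.50, 11.36 and 11.46 outside and 10.32, 10.72 and 10.81 in spheres at 24 h, and 11.79, 11.72 and 11.80 against 10.82, 10.94 and 10.79 at 48 h. It was lower, with a difference of -0.83 ± 0.13 (adjusted p = 0.000546) and -0.92 ± 0.13 (0.000171), with no overlap.

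Fuca1, an alpha-fucosidase, read 9.74, 9.49 and 9.67 outside and 9.20, 9.26 and 9.30 in spheres at 24 h, and 10.11, 9.88 and 9.74 against 9.40, 9.45 and 9.47 at 48 h. The differences were -0.38 ± 0.12 (adjusted p = 0.0295) and -0.47 ± 0.12 (0.00775). The 24 h call was lost without in-sphere replicate 1 or 2 or outside replicate 1 or 3 (adjusted p 0.0649 to 0.110), with the second probe set (0.0704) or with arrays centred (0.0509), and the 48 h call with arrays centred (-0.35, 0.102). The second probe set of Fuca1 averaged 2.95, near the detection level of 2.77. Naglu, which acts on heparan sulfate, overlapped at 24 h, with 7.37, 6.94 and 6.90 outside and 7.10, 6.83 and 7.27 in spheres. At 48 h it read 8.20, 7.27 and 7.70 outside and 7.17, 6.96 and 6.90 in spheres, and outside replicate 1 was far above the others. It was called at 48 h (-0.71 ± 0.22, adjusted p = 0.0214) and lost that call without outside replicate 1 (-0.47, 0.0933), outside replicate 3 (0.0502), in-sphere replicate 2 (0.0568) or in-sphere replicate 3 (0.0626).

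Gaa, which digests glycogen, differed by -0.24 (adjusted p = 0.253) at 24 h and was lower at 48 h (-0.69 ± 0.15, 0.00304). Gusb, beta-glucuronidase, differed by -0.19 (0.380) at 24 h and was lower at 48 h (-0.61 ± 0.14, 0.00576), while its second probe set was called at 24 h (-0.81, 0.00738). Man2b1, an alpha-mannosidase, differed by -0.63 ± 0.24 at 24 h (0.0673) and -0.65 ± 0.24 at 48 h (0.0481); the 48 h call was lost with the experiments as a replicate block (0.0519) with arrays centred (0.0976) and without any 1 of the 48 h arrays (up to 0.124), and in 11 of 17 alternatives in all. Glb1, beta-galactosidase, was not called, with 7.35, 7.07 and 6.76 outside and 7.00, 7.20 and 7.27 in spheres at 24 h and 7.59, 7.58 and 7.56 against 7.47, 7.34 and 7.25 at 48 h. Its differences were 0.10 ± 0.15 and -0.22 ± 0.15, and its 48 h arrays did not overlap. Manba, the remaining glycosidase, read 6.94 to 7.39 in spheres and 7.41 to 7.61 outside at 48 h and was not called.

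Sulfatases, which strip sulfate from glycosaminoglycans and glycolipids, were called lower in 1 of 5 cases at 24 h and 2 of 5 at 48 h. Of all tested genes 13.6% and 22.3% were called lower. With 5 genes these counts are not read as a result about the group. Sgsh, the heparan N-sulfatase, read 6.37, 5.77 and 6.06 outside and 4.84, 5.24 and 5.31 in spheres at 24 h, and 6.89, 6.41 and 6.72 against 5.51, 5.83 and 5.05 at 48 h. It was lower, with differences of -0.94 ± 0.22 (adjusted p = 0.00667) and -1.21 ± 0.22 (0.00103), while its second probe set gave -0.17 (0.563) and -0.13 (0.624). Galns, which acts on keratan sulfate, overlapped at 24 h with 7.67, 7.85 and 7.31 outside and 7.53, 7.59 and 7.96 in spheres. At 48 h it read 8.18, 7.94 and 8.07 outside and 7.56, 7.36 and 7.05 in spheres, and was lower, with a difference of -0.74 ± 0.18 (adjusted p = 0.00601). Arsa, whose activator is a saposin, was not called, with 7.05, 7.03 and 6.45 outside and 7.09, 7.03 and 7.21 in spheres at 24 h and 7.47, 7.10 and 7.25 against 7.26, 7.21 and 6.97 at 48 h. Its differences were 0.27 ± 0.17 and -0.13 ± 0.17. Ids read 8.30 to 9.01 over the 12 arrays, and Arsb 2.34 to 3.21, about the detection level of 2.77, so its level was barely measured.

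Of the lipid and acyl hydrolases 0 of 3 were called lower at 24 h and 1 of 3 at 48 h, where 13.6% and 22.3% of all tested genes were. None was called higher. Asah1, acid ceramidase, read 10.42, 10.10 and 10.47 outside and 9.89, 10.21 and 10.02 in spheres at 24 h, and 10.57, 10.46 and 10.42 against 10.09, 10.16 and 10.16 at 48 h. Its 48 h difference of -0.35 ± 0.13 just passed (adjusted p = 0.0486) and was lost with the experiments as a block (0.0683), with arrays centred (-0.23, 0.307) or without any 1 of the 48 h arrays (up to 0.147). Ppt1, a thioesterase that removes palmitate from proteins, was the 1 member whose in-sphere arrays lay above all outside arrays at 48 h, with 8.02, 8.17 and 8.25 against 7.55, 7.92 and 8.00. Its difference of 0.32 ± 0.19 was not called (adjusted p = 0.202). Smpd1, acid sphingomyelinase, read 6.29, 6.12 and 5.46 in spheres and 6.41, 6.09 and 6.35 outside at 48 h, with overlap, and differed by -0.33 ± 0.23 (0.283).

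The peptidases and the phosphatase were called lower in 2 of 3 cases at each time. Tpp1, a tripeptidyl peptidase, read 10.55, 10.42 and 10.60 outside and 10.10, 10.04 and 10.22 in spheres at 24 h, and 10.89, 10.82 and 10.83 against 10.13, 10.18 and 10.19 at 48 h. It was lower at both, with differences of -0.41 ± 0.10 (adjusted p = 0.00919) and -0.68 ± 0.10 (0.000260). Its second probe set was not called at 24 h (-0.33, 0.169) and gave -1.09 at 48 h. Lgmn, the asparaginyl endopeptidase that processes cathepsins, read 11.31, 11.16 and 11.48 outside and 10.41, 11.06 and 10.88 in spheres at 24 h, and 11.42, 11.37 and 11.57 against 11.00, 11.23 and 11.36 at 48 h. It was called at 24 h (-0.54 ± 0.17, 0.0305), lost that call without in-sphere replicate 1 (-0.35, 0.114), outside replicate 1 (0.0709) or outside replicate 3 (0.110), and was not called at 48 h (-0.26 ± 0.17, 0.262). Acp2, lysosomal acid phosphatase, read 8.21, 7.71 and 7.78 outside and 7.44, 7.34 and 7.95 in spheres at 24 h, and 8.63, 8.10 and 8.47 against 7.05, 7.26 and 7.10 at 48 h. It was not called at 24 h (-0.32 ± 0.19, 0.246) and was 2.40-fold lower at 48 h (-1.26 ± 0.19, 0.000321).

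Across the 44 members, 21 were called lower at both times, where 11.2% of all tested genes were. A further 11 were called lower at 48 h alone, among them Tcirg1, Atp6v0b, Acp2 and Galns, and 2 at 24 h alone, Laptm4a and Lgmn. The 9 called at neither time were Lamp2, Npc2, Glb1, Manba, Ids, Arsa, Arsb, Ppt1 and Smpd1. A call at 1 time and not at the other does not show a change between them, and that change was tested as the interaction of position and time. Without a replicate block 0 of 12488 genes passed it at an adjusted p under 0.05 (0.00%), and 1534 (12.3%) at an unadjusted p under 0.05. At that unadjusted level 12 members had a lower difference at 48 h than at 24 h (8.39% of all genes) and 0 a higher one (3.89%). With the experiments as a replicate block 65 genes passed the adjusted threshold (0.520%), and with arrays centred 70; 0 members did under either. The in-sphere minus outside difference was lower at 48 h than at 24 h in 40 of the 44 members, Gm2a (above 0 at both times) included, against 64.5% of all genes, with a median change of -0.27 against -0.10. With arrays centred the member median was -0.096, against 0.071 for all genes. The smallest p-values were those of Atp6v1b2 (-0.71 ± 0.19, adjusted p = 0.178), Atp6v0b (-0.89 ± 0.25, 0.196), Acp2 (-0.94 ± 0.27, 0.204) and Galns (-0.82 ± 0.25, 0.225).

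Each position was also compared between times; these comparisons share their arrays with those above. Outside the spheres 42 of 12488 genes were called between 48 h and 24 h (0.336%) and 0 members were; with the replicate block 158 genes (1.27%) and again 0 members were called. All 44 member differences were nevertheless above 0, against 7029 of all 12488 genes, with a median of 0.32 against 0.031. At an unadjusted p under 0.05, 22 members were higher at 48 h (6.27% of all genes) and 0 lower (4.56%), and in 32 every 48 h array lay above every 24 h array (13.4% of all genes). The largest differences were those of Clcn7 (0.67 ± 0.16, adjusted p = 0.130), Naglu (0.65 ± 0.22, 0.257), Sgsh (0.61 ± 0.22, 0.314) and Tcirg1 (0.59 ± 0.15, 0.139), and Clcn7 was called when arrays were weighted by their quality (0.0358). In spheres 0 genes of 12488 were called between the times (0.00%; 1341, 10.7%, at an unadjusted p under 0.05), while with the replicate block 15 genes (0.120%) and 0 members were. Members were spread about 0, with 25 of 44 above it, against 4502 of all 12488 genes. Their median was 0.026, against -0.069 for all genes. With arrays centred the all-gene median was 0.081, and the member median, given in the closing section, again lay above it. At an unadjusted p under 0.05, 3 members were lower (7.71% of all genes) and 2 higher (3.03%).

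**Figure D4:**
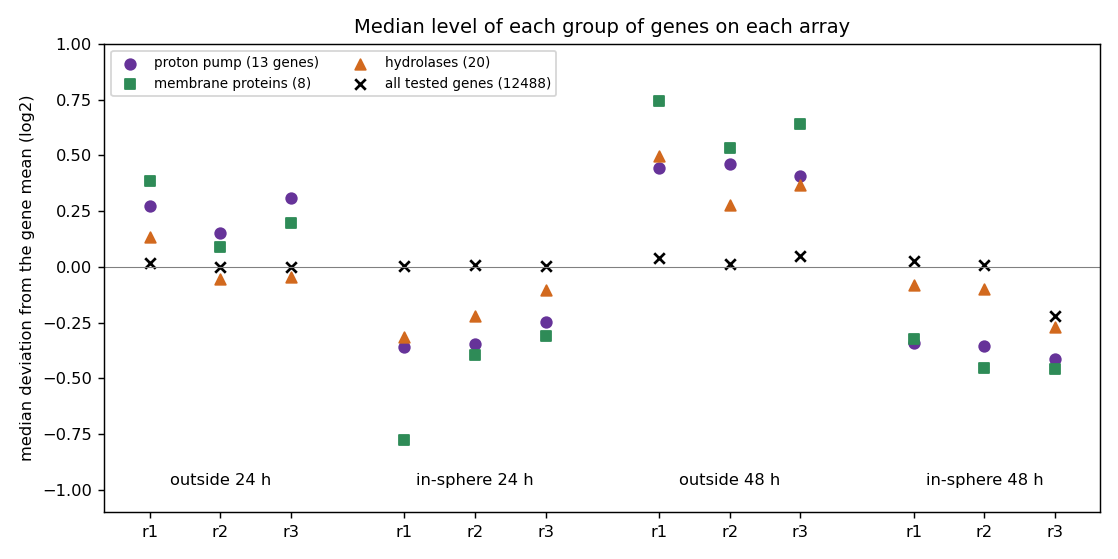
Median deviation of the pump, membrane, hydrolase and all tested genes from their own means over the 12 arrays (log2, vertical axis), for each array (r1 to r3 are replicates). Pump and membrane medians lie above 0 on all outside arrays and below 0 on all in-sphere arrays, the 48 h outside arrays are the highest, and the all-gene median of in-sphere 48 h replicate 3 lies at -0.22.

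Members with and without the E-box core were set side by side. The 15 with it had medians of -0.45 at 24 h and -0.92 at 48 h, with 9 (60%) and 12 (80%) called lower. The 24 members with no core in any of their promoters had medians of -0.35 and -0.54, with 11 (45.8%) and 15 (62.5%) called lower. Over all tested genes the medians were -0.023 and -0.15 with the core, and -0.00025 and -0.096 without; 16.9% and 28.6% of those with it were called lower, and 13.3% and 21.9% of those without. Large differences occurred in both groups of members, in Cln3, Clcn7 and Gla with the core and in Scarb2, Atp6v0a1 and Acp2 without it. The difference between the 2 groups was not tested.

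**Figure D5:**
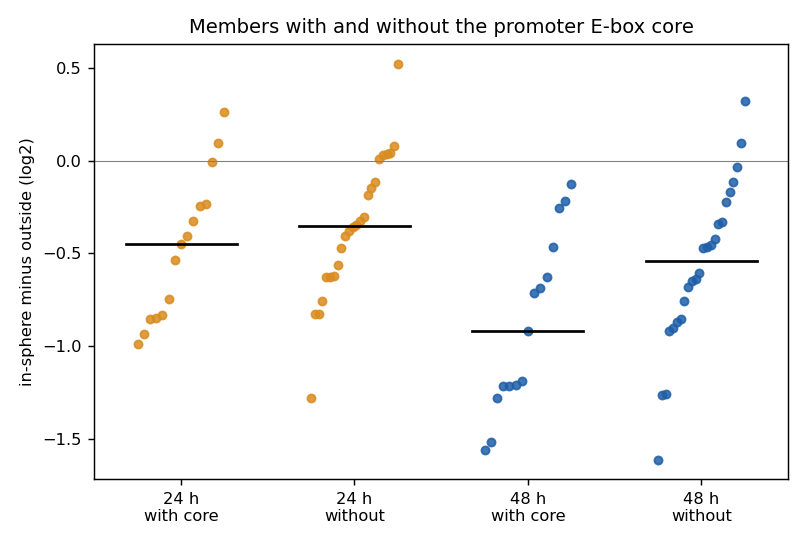
In-sphere minus outside difference (log2, vertical axis) of the 39 members with a RefSeq promoter, split by the presence of the core CACGTG, at 24 h and 48 h; points are genes ordered by value, lines are medians. The medians at 48 h are -0.92 for the 15 with the core and -0.54 for the 24 without, and the ranges overlap.

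The remaining genes of the pathway were read from lists that, like the members, were drawn up with earlier results known. Their counts stand beside the shares of all tested genes, 13.6% lower and 15.8% higher at 24 h and 22.3% and 15.2% at 48 h, and their medians beside -0.0068 and -0.10. Among isoforms and assembly factors of the pump 9 of 16 were tested, with 4 called lower at 24 h, 6 at 48 h and 0 higher (medians -0.33 and -0.55). Atp6v0d2, the d subunit isoform of osteoclasts and some macrophages, read 9.04, 7.86 and 9.01 outside and 6.16, 5.48 and 5.72 in spheres at 24 h, and 10.41, 9.87 and 10.34 against 6.61, 5.59 and 5.74 at 48 h. That is -2.85 ± 0.34 and -4.23 ± 0.34 (adjusted p = 8.08e-05 and 3.47e-06), larger than for any member. Rogdi differed by -1.15 and -1.38, and Wdr7, which takes part in assembling the pump, by -0.97 and -1.61, all called.

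Of 17 other luminal enzymes tested of 24 listed, 7 were lower at 24 h and 13 at 48 h, with 0 higher (medians -0.35 and -0.71). Lipa, lysosomal acid lipase, was lower at both times (-1.45 ± 0.13 and -1.84 ± 0.13), as was Galc, galactosylceramidase (-1.27 ± 0.15 and -1.90 ± 0.15; a second probe set gave -0.34 at 48 h, adjusted p = 0.0864). Of 21 other membrane and transport genes tested of 25, 9 were lower and 1 higher at 24 h, and 15 lower and 1 higher at 48 h (medians -0.39 and -0.75). The higher gene was Laptm4b at both times (1.24 ± 0.18 and 0.79 ± 0.18), the relative of Laptm4a. Lower genes included Tpcn2 at 24 h (-0.98, but -0.54 without in-sphere replicate 1, and not called in 3 of 16 alternatives, with adjusted p up to 0.0813), the amino acid transporter Slc36a1 (-0.85 and -1.31; the 24 h call was lost without in-sphere replicate 1, 0.0731, or outside replicate 1, 0.0572), the cystine exporter Ctns (-1.40 at 48 h) and the metal ion transporter Slc11a1 (-1.32 at 48 h). Of 9 genes for the delivery of enzymes tested of 12, 3 were lower and 1 higher at 24 h and 6 lower at 48 h (medians -0.13 and -0.50). Sort1, the sorting receptor sortilin, was lower at both times (-2.21 ± 0.27 and -2.61 ± 0.27), where its second probe set gave -0.97 and -0.72. Cln8 was lower at 24 h (-0.62; -1.01 with the second probe set) and Gga3 at 48 h (-1.14). Gnptab, which makes the mannose phosphate tag of lysosomal enzymes, was higher at 24 h (0.65 ± 0.17), a call lost without outside replicate 2 (0.0506).

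The cathepsins, proteases of the same compartment, had calls in both directions: of 14, 5 were lower (13.6% of all genes) and 1 higher (15.8%) at 24 h, and 8 lower (22.3%) and 1 higher (15.2%) at 48 h, with medians of -0.26 and -0.50. Ctsc was the higher one (0.99 ± 0.11 and 1.70 ± 0.11; 2.56 at 48 h with the second probe set), and Ctse was lower at both times (-2.55 ± 0.26 and -2.96 ± 0.26), followed by Ctsd at 24 h (-0.70) and Ctsf at 48 h (-0.93; -0.46 with the mean of its probe sets). The list of regulators of this gene set held MiT/TFE factors and Rag GTPases, and also Lamtor genes, Flcn, Fnip1 and Fnip2. Of its 14 genes tested of 16, 11 were lower at 24 h and 12 at 48 h, with 0 higher (medians -0.51 and -0.72). Tfeb read 5.10, 5.61 and 4.74 outside and 4.37, 3.94 and 4.16 in spheres at 24 h, and 5.07, 5.22 and 5.11 against 4.10, 3.93 and 3.34 at 48 h. It was lower, with differences of -0.997 ± 0.23 (adjusted p = 0.00596) and -1.34 ± 0.23 (0.000676). Mitf was lower at both times (-0.68 ± 0.17 and -0.92 ± 0.17), the 24 h call being lost with its second probe set (-0.32, adjusted p = 0.125), and Tfe3 was called lower at 48 h (-0.69 ± 0.19) and not at 24 h. Tfec was not called (-0.51 ± 0.28 and -0.46 ± 0.28). Rragd, a Rag GTPase, was lower at both times (-2.74 ± 0.25 and -3.93 ± 0.25), where a second probe set gave -0.0098 and -0.082. Fnip2, a partner of folliculin, was also lower at both (-1.39 ± 0.10 and -1.75 ± 0.10). These arrays measure RNA and not the activity of the factors.

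Markers of other cells are given beside these results. Their counts stand beside the shares of all tested genes. These were 13.6% lower and 15.8% higher at 24 h, and 22.3% and 15.2% at 48 h. In bulk samples fewer cells of a type and less RNA per cell cannot be told apart. Of 13 neural and neuroblastoma markers tested of 19, 2 were higher in spheres at 24 h (15.8% of all genes were) and 3 at 48 h (15.2%), with medians of 0.023 and 0.019. The largest difference was that of Gap43 (3.99 ± 0.30 and 4.41 ± 0.30). Their mean level was 3.45 to 3.61 in spheres and 3.08 to 3.16 outside at 24 h, and 3.44 to 3.54 against 2.90 to 2.98 at 48 h, while Tubb3, Chga, Nefl and Nefm were above the detection level on no array. Phox2a and Th, which define sympathetic neuroblasts, read 2.78 to 3.09 and 2.62 to 3.23 over the 12 arrays, about the detection level. Stromal and fibroblast genes, 12 in number, had 6 higher and 2 lower calls at 24 h, and 7 and 3 at 48 h (medians 0.90 and 1.06), with mean levels of 5.28 to 6.03 in spheres against 4.58 to 4.93, and 5.70 to 5.85 against 4.57 to 5.31. The largest stromal difference was that of Col3a1 (2.64 and 3.28), and the lowest were -0.76 and -1.23. At 24 h Col3a1 read 10.35 to 11.18 in spheres and 7.63 to 8.41 outside. Of 11 granulocyte markers 7 were lower at 24 h, and 7 lower and 1 higher at 48 h (medians -0.69 and -0.87), with mean levels of 9.09 to 9.99 in spheres against 10.13 to 10.63, and 8.38 to 9.26 against 9.31 to 9.90. The 11 macrophage markers had 3 lower and 1 higher at 24 h and 3 lower and 2 higher at 48 h, with medians of -0.35 and -0.29. In-sphere 24 h replicate 1 had the lowest macrophage and the highest neural and stromal means, and also the lowest membrane-protein median. Erythroid, dendritic cell and lymphocyte lists had 2, 5 and 4 genes tested, with 1 lower, 1 higher and 1 lower at 24 h. The part of other cells in the member differences was not tested.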

How the data were processed

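Affymetrix mouse arrays measured RNA in 4 groups of 3. The authors deposited RMA summaries on a log2 scale, and the submitters' processing notes name Affymetrix Expression Console 1.1. RMA normalises the arrays together, which removes differences in total RNA and compresses those of dim probe sets. That the base of the logarithm is 2 was inferred from how far the values extend. All 45141 probe sets had a value on each array, and the median per array was 3.03 to 3.17; precision is limited by the number of arrays.

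The platform annotation gave 28898 probe sets exactly 1 gene symbol, 551 several and 15692 none. Per gene, the probe set with the highest mean was kept (17097 genes). A gene was tested if it exceeded 2.77, the 40th percentile of all values and the detection level named in the text, on at least 3 arrays (12488 genes). One group-means model over the 12 arrays was fitted in limma 3.58.1 (R 4.3.3; 8 residual and 4.09 prior degrees of freedom), with Benjamini-Hochberg adjustment over all tested genes and calls at an adjusted p under 0.05. Differences are in-sphere minus outside unless stated, ± SE of the fit. On simulated data with 12488 genes, of which 100 were changed at each size, the 24 h comparison recovered 75% of differences of 1 and 18% of differences of 0.5, with 5 false calls. In the real 24 h comparison 29.4% of genes were called, so these recovery rates need not hold there.

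Members and gene lists were chosen with earlier results of these data known, so no set test was run. Array values are given for the called members with the largest differences in each role (up to 3, or 2 in small groups), for uncalled members with the smallest p and for members of opposite direction, and from each pathway list for the 2 largest calls per direction, with some regulators added. Mcoln1 was added with its promoter.

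Replicate numbers mark independent experiments, and the design text draws both positions from the same cultures. Same-numbered outside arrays of 24 h and 48 h deviated together (correlations 0.419 to 0.473), and in-sphere and outside arrays less so (0.0215 to 0.120 at 24 h, 0.0417 to 0.117 at 48 h). No label says that a number is shared between groups, and the main model did not pair the arrays. Only the replicate block, an alternative fit, treated the numbers as pairing, and blocked values stand beside the results and counts they change. P-values measure the spread between these experiments. Alternatives were the block, other probe sets, filters, centring, quantile normalisation, array weights, other priors, the compared groups alone, a stricter threshold and leaving out each array. Scanner files were not used here.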

Additional observations from a re-analysis of the deposited data

How the results depend on the processing

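Of the single-gene differences named or plotted, 131 were recomputed under 16 or more alternatives each where these could be fitted, 2185 values in all. Those left out included Ids and Arsb at both times, Manba, Ppt1 and Smpd1 at 24 h, Itgam and Gap43. The counts and sign changes given here do not cover them. Of the 2185 values 2056 kept their direction and their side of the threshold, 94 lost a call, 25 gained one and 10 changed sign. The sign changes were those of Gm2a at 24 h with the second probe set (-0.21) and at 48 h with it (-0.24), with the mean of probe sets (-0.023) and without outside 48 h replicate 2 (-0.0019); Lamp2 at 48 h with the second probe set (0.024); Glb1 at 24 h without outside replicate 3 (-0.052; 0.24 at most over single arrays left out); Naglu at 24 h without in-sphere replicate 2 (0.11) or outside replicate 1 (0.15; -0.11 at the lowest); and Galns at 24 h without in-sphere replicate 3 (-0.053) or outside replicate 3 (-0.068; 0.20 at most). Gm2a at 48 h reached 0.22 when single arrays were left out. Among these, only Gm2a at 24 h was called in the first place.

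The count of 23 members called lower at 24 h was 15 at an adjusted p under 0.01 and 18 to 26 when single arrays were left out; the 1 higher member was 0 at that threshold, with the mean of probe sets, with the second probe set and with arrays centred, and 0 to 1 when single arrays were left out. At 48 h the 32 lower members were 26 to 33 under all alternatives. The all-gene share called lower at an adjusted p under 0.05 ran from 15.9% with no filter to 29.0% with the stricter filter. With the experiments as a replicate block, 23 members were lower at 24 h (14.1% of all genes) and 30 at 48 h (23.0%). Man2b1 (adjusted p = 0.0519) and Asah1 (0.0683) were lost, and the block changed no other call of a member. The block with in-sphere 48 h replicate 3 left out, chosen after seeing the data, gave 30 at 48 h (16.6% of all genes). Between times, 1 member was called higher in spheres without in-sphere 24 h replicate 2 (0 to 1 over single arrays left out), where 0.0561% of all genes were. With array weights 1 was called higher outside, where 1.13% of all genes were.

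Over all tested genes, the 42 called between times outside were 158 with the replicate block, 120 with arrays centred, 124 after quantile normalisation, 286 with array weights, 89 with another prior, 1 with the compared groups alone and 0 to 41 when single arrays were left out. The 0 in spheres were 15 with the block, 115 with array weights and at most 12 otherwise, and the 0 of the interaction were 65 with the block, 70 with arrays centred, 130 with array weights and at most 7 otherwise.

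Medians moved as follows. The pump median at 24 h was -0.60 with the second probe set, and at 48 h -0.77 with the mean of probe sets, -0.82 with the second and -0.76 with arrays centred. The membrane median at 48 h was -1.03, -0.83 and -0.99 under those settings and -1.02 after quantile normalisation. The median of all members with arrays centred was -0.57 at 48 h (0.017 for all genes), 0.18 between times in spheres (0.081) and 0.29 outside (0.0046). Outside it was also 0.23 with the second probe set, 0.29 after quantile normalisation, 0.27 with array weights and 0.26 to 0.36 when single arrays were left out. The cause of these moves was not tested. Several probe sets were present for 23 members, and of 37 other sets above the detection level 34 had the sign of the set used at 24 h and 32 at 48 h.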
